A study of Mus musculus with 4 samples.

Results

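A set of 9 serotonin receptor genes is described here through histone H3 trimethylated at lysine 4 (H3K4me3), a mark of active and poised promoters, in the mouse hippocampus. They were taken as a list of names, Htr1a, Htr1b, Htr2a, Htr2c, Htr3a, Htr4, Htr5a, Htr6 and Htr7, which makes 9 of the 14 serotonin receptor genes examined and 9 of the 21951 protein-coding genes of the annotation. A gene was called marked where an H3K4me3 peak lay within 1 kb of any of its annotated start sites, and peaks separated by 1 kb or less were joined into a domain, whose length is called breadth. The mark was mapped by chromatin immunoprecipitation and sequencing (ChIP-seq) in hippocampus of adult male B6CASTF1/J mice aged 2 months, first-generation hybrids between an inbred laboratory mouse and an inbred mouse of wild origin. The 4 libraries were those of pool C and pool D, each made from 7 biosamples, with 2 technical replicates per pool that the authors had merged into 1 alignment. The labels call the tissue a layer of hippocampus without naming the layer. All animals shared strain, sex and age and the labels give no treatment, so the design holds no contrast of conditions, and the spread between the pools was the only replicate error.

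Serotonin reaches the hippocampus through axons of neurons whose cell bodies lie in the raphe nuclei of the brainstem, and many of its receptors are made by the hippocampal cells that receive it. The products of Htr1a, Htr1b and Htr5a couple to the inhibitory Gi/o proteins. Those of Htr2a and Htr2c couple to Gq and phospholipase C, and those of Htr4, Htr6 and Htr7 couple to Gs and raise cyclic AMP. The product of Htr3a stands apart as a subunit of a cation channel opened by serotonin, and in hippocampus and cortex it is known from a subset of inhibitory interneurons.

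Htr3a was the single receptor of the 9 without a promoter peak. The other 8 were marked in the replicated list, in pool C and in pool D, against 65.5% of all protein-coding genes in the replicated list, 66.9% in pool C and 64.2% in pool D. They were also marked in the list called on both pools together, where 66.3% of all genes were. Of the receptors' 21 annotated start sites, 17 lay under a peak in each of these lists. Domains ranged from 1476 bp at Htr2c to 5185 bp at Htr1a in the replicated list, with a median of 2766.5 bp over the 8 marked receptors and 2234 bp over all 14369 marked genes. In pool C the median was 3261.5 bp for the receptors and 2400 bp for all marked genes, and in pool D it was 2668.0 bp for the receptors and 2034 bp for all marked genes. With 8 genes chosen by name no test was made on these medians.

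**Figure D1:**
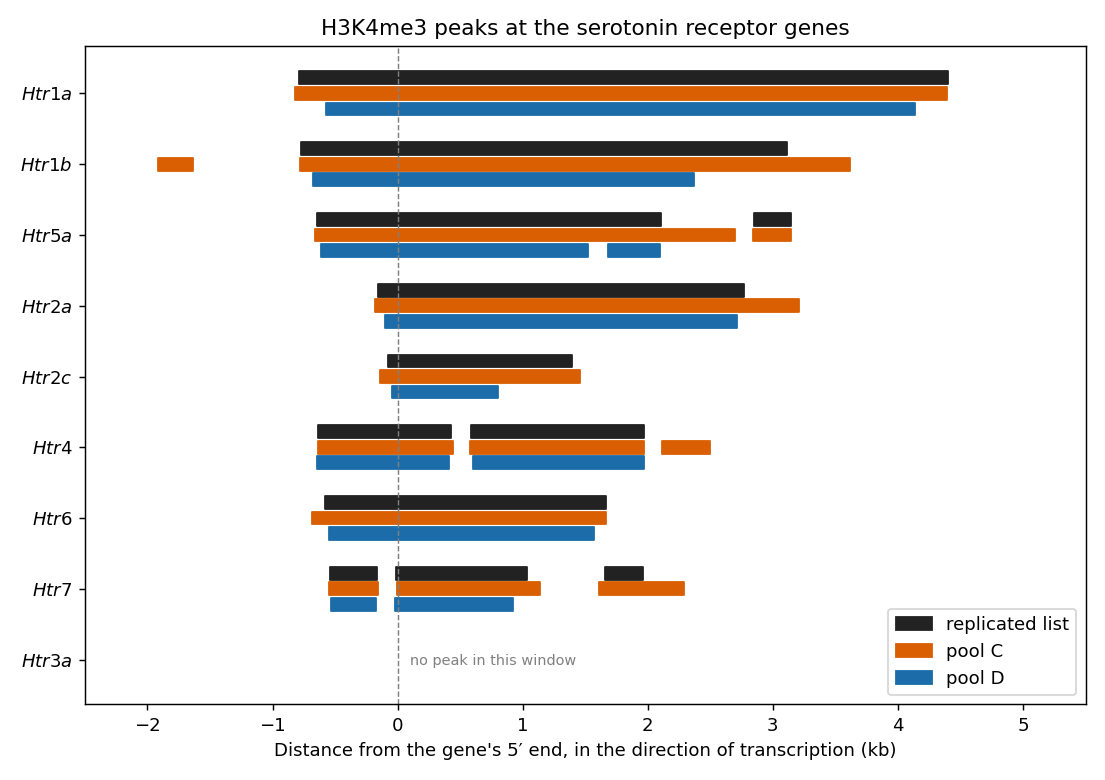
H3K4me3 peaks at the 9 serotonin receptor genes, drawn by distance in kb from each gene's 5′ end (dashed line) in the direction of transcription, for the replicated list, pool C and pool D. Htr1a carries 1 unbroken peak of 5185 bp in the replicated list, the peaks of Htr4 and Htr7 are split close to the 5′ end, and Htr3a has none.

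Among the Gi/o-coupled receptors, Htr1a encodes the receptor that opens inward-rectifier potassium channels in hippocampal pyramidal cells and also serves as the autoreceptor on raphe neurons. Its gene is a single exon of 4484 bp on chromosome 13, plus strand. The domain measured 5185 bp in the replicated list, 5212 bp in pool C and 4711 bp in pool D. It was the broadest of the receptors' domains in the replicated list and in pool D, and it differed little between the pools, at 4961.5 ± 354 bp (SD, n = 2 pools). In the replicated list it spanned chr13:105442854-105448038 (build mm10) and lay over 98.1% of the gene. The summit fell 940 bp downstream of the 5′ end, within the coding exon.

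The promoter of Htr1a is printed because the broadest domain of the 9 genes sat on a stretch not rich in CpG dinucleotides, the sequence feature of CpG island promoters. It held 7 CpGs in 300 bases, equal to the median of 7 over all promoters of the RefSeq table. Capitals mark each CpG in this and the following sequences, which run 5′ to 3′ from 250 bases before to 50 after the RefSeq start site on build GRCm38.p6. The window is chr13:105443443-105443742, plus strand.
Htr1a promoter: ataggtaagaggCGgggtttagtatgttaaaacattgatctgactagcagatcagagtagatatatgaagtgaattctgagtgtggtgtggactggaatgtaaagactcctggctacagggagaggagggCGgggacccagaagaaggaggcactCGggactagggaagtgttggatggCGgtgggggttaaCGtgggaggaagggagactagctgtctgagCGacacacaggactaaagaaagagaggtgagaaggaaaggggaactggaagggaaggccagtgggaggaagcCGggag

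Htr1b encodes a presynaptic receptor that restrains transmitter release from axon terminals. Its domain measured 3885 bp in the replicated list, 5532 bp in pool C and 3045 bp in pool D. This was the widest spread between the pools in base pairs among the 8 marked receptors, 4288.5 ± 1759 bp (SD, n = 2 pools). In pool C a further small peak was joined across a gap of 854 bp on the upstream side, and that peak was in neither the replicated list nor pool D. In all 3 lists the domain also held 5 start sites of D430036J16Rik, an annotated antisense transcript on the opposite strand, so its mark cannot be assigned to Htr1b alone. The replicated domain spanned chr9:81630719-81634603 and covered 56.2% of the 5538 bp gene, with the summit 495 bp inside the annotated 5′ end, in an intron.

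Htr5a, the least studied of the 3, showed 3789 bp in the replicated list, 3805 bp in pool C and 2716 bp in pool D. The replicated domain, chr5:27841508-27845296, joined 2 peaks across a gap of 749 bp. Pool C had a second peak at nearly the same place behind a gap of 145 bp, while in pool D the second peak lay nearer to the 5′ end behind a gap of 163 bp. The pool ranges of Htr1b and Htr5a overlapped, as did those of Htr1a and Htr1b, while both pool values of Htr1a lay above both of Htr5a.

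**Figure D2:**
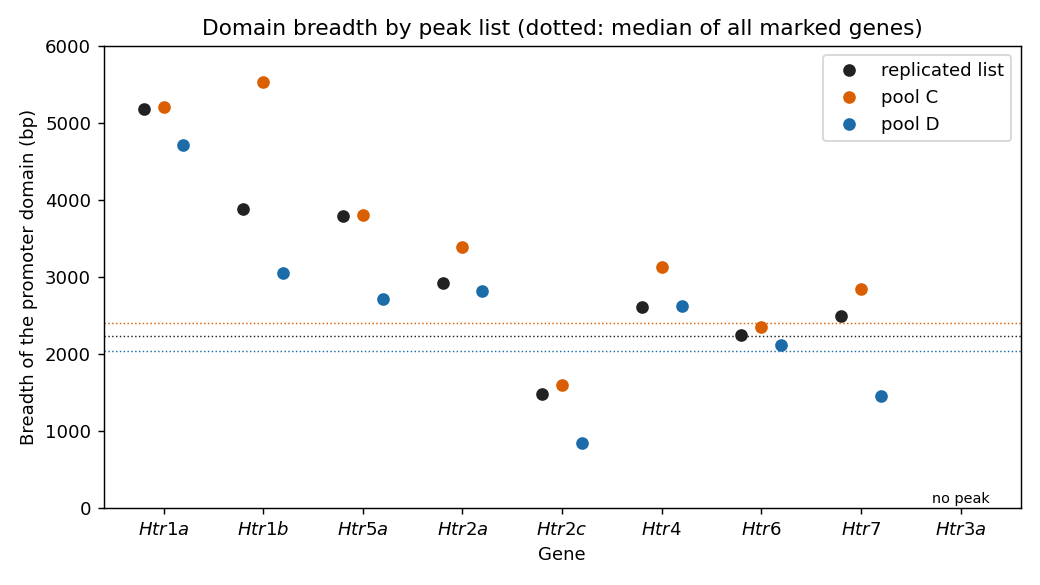
Breadth in bp (linear axis) of the promoter domain of each serotonin receptor gene in the replicated list, pool C and pool D, with dotted lines for the median of all marked protein-coding genes in the list of the same colour. Pool C lies above pool D at all 8 marked genes, Htr1a is broad in both pools, and Htr2c lies below the median of its list in all 3.

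Of the Gq-coupled receptors, Htr2a encodes the receptor at which classical hallucinogens act. It showed a domain of 2927 bp in the replicated list, 3390 bp in pool C and 2815 bp in pool D. The domain began only 158 bp upstream of the annotated start and ran into the gene, chr14:74640682-74643608, so that 5.4% of it lay upstream. The strongest position was 502 bp downstream of the 5′ end, in noncoding sequence of exon 1, in the replicated list and in pool D. In pool C it was 2571 bp downstream, in an intron. A separate peak of 274 bp inside the gene was in the replicated list with a −log10 q of 1.18 and was in neither single-pool list.

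Htr2c encodes the receptor through which serotonin acts on feeding circuits, and it is expressed at high level in the choroid plexus as well as in neurons. Its domain was the narrowest of the 8, with 1476 bp in the replicated list, 1600 bp in pool C and 847 bp in pool D. All 3 values were below the median of all marked genes in the same list. The domain at chrX:146962435-146963910 covered all 4 annotated start sites and 0.595% of the 234765 bp gene, and the nearest other peak was 588077 bp away. The mice were male and carry the gene on their X chromosome only, and copy number was not allowed for. Of 6 markers of ependyma and choroid plexus, Ttr, Folr1, Otx2 and Aqp1 had no promoter peak in any of the 3 lists. The others, Kl and Foxj1, had domains of 1278 bp and 1393 bp in the replicated list, with a −log10 q of 31.6 and 97.9. The share marked was 33.3% in each list, against 65.5% of all protein-coding genes in the replicated list, 66.9% in pool C and 64.2% in pool D. The part of choroid plexus in the mark at Htr2c was not tested. In bulk tissue, a mark in fewer cells cannot be told apart from less mark per cell.

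The promoter of Htr2c is shown as the weakest and narrowest of the marked set, with 5 CpGs in its 300 bases at chrX:146962263-146962562, plus strand. A wider window of 500 bp on either side of the 5′ end held 41, so most of the CpGs near this gene lay outside the printed stretch.
Htr2c promoter: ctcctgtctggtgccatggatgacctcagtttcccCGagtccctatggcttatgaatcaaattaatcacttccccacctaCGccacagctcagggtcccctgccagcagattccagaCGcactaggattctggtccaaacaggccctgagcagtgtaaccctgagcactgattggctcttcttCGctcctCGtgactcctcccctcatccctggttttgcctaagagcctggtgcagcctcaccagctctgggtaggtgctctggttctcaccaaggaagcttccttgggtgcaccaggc

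Of the Gs-coupled receptors, Htr4 was marked at 1 of its 2 promoter regions. Its product acts at synapses of the hippocampus where it favours plasticity and acetylcholine release. The domain measured 2606 bp in the replicated list, 3133 bp in pool C and 2620 bp in pool D, and it lay at the 5′ start site of the gene on chromosome 18. The later start sites, from which 3 annotated transcripts begin, had no peak within 1 kb, the nearest being 14835 bp away in the replicated list. The domain consisted of 2 peaks in the replicated list and in pool D and of 3 in pool C. The gap that divided it just inside the gene was 160 bp long in the replicated list, 135 bp in pool C and 189 bp in pool D, at nearly the same place. A short peak inside the gene, 24957 bp from the last start site in the replicated list, was present in all 3 lists with a −log10 q of 3.33 in the replicated list, 5.18 in pool C and 3.91 in pool D.

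Htr6, whose receptor is found almost only in the brain and sits on neuronal primary cilia, varied least in relative terms among these 3. It showed 2243 bp in the replicated list, 2353 bp in pool C and 2112 bp in pool D, or 2232.5 ± 170 bp over the pools (SD, n = 2). The value in the replicated list was 9 bp above the median of all marked genes. Both annotated start sites lay under the peak at chr4:139073908-139076150, and so did a start site of the antisense transcript Gm45533. Htr4 and Htr6 were the single pair of neighbours in the order of mean breadth whose pool ranges did not overlap.

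Htr7 encodes a receptor that has been tied to circadian timing and to the excitability of hippocampal neurons. Its domain measured 2499 bp in the replicated list, 2838 bp in pool C and 1457 bp in pool D, the largest ratio between pools of the 8 at 1.95. The difference came with a further peak on the gene side, present in the replicated list and in pool C behind gaps of 628 bp and 469 bp and absent from pool D. The 2 peaks nearest the 5′ end were found in every list with a gap of 147 bp in the replicated list, 150 bp in pool C and 148 bp in pool D. That gap lay immediately upstream of the 5′ end, at positions −163 to −17 in the replicated list.

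The gap between both promoter peaks of Htr7 is printed with the promoter because it recurred in both pools, shifted by a few bases, at a stretch dense in CpGs. The gap of the replicated list, chr19:36057524-36057670, minus strand, held 30 CpGs in 147 bases. The gaps of pool C and pool D, chr19:36057514-36057663 and chr19:36057530-36057677, covered most of it. The promoter window, chr19:36057311-36057610, minus strand, held 46 in 300 bases, the most of the receptor promoters in the table. Both windows overlap in part.
Htr7 promoter: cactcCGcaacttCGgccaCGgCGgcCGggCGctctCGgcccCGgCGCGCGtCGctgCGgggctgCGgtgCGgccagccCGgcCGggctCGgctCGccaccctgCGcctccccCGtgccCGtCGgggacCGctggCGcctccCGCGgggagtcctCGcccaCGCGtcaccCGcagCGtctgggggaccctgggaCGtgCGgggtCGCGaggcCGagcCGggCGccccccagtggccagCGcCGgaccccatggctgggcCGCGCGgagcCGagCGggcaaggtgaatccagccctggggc
Htr7 gap: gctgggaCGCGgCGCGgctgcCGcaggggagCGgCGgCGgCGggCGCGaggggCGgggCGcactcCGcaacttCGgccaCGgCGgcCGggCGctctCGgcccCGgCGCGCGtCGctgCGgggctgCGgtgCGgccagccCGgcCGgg

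Htr3a had no peak within 1 kb of either of its start sites. The nearest peak was 73168 bp away in the replicated list and 73345 bp away in pool D, and both lay at the promoter of Usp28. In pool C the nearest was 50018 bp away, a peak of 546 bp inside the neighbouring receptor gene Htr3b. The interneuron markers did not all lack peaks. Of 9 such genes, 7 were marked in the replicated list, 8 in pool C and 6 in pool D. These counts are 77.8%, 88.9% and 66.7%, against 65.5%, 66.9% and 64.2% of all protein-coding genes in the same lists. Cck and Cnr1, which mark the interneuron class in which Htr3a is best known, had domains of 4652 bp and 5790 bp in the replicated list, although both are also expressed by pyramidal cells. Vip had no peak in any list, and Sst had a peak of 256 bp in pool C alone. The part of interneuron number in the absence of a Htr3a peak was not tested.

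The pools differed in one direction. All 8 marked receptors had a broader domain in pool C than in pool D, and so had 96.8% of the 14098 genes marked in both pools. The ratio of pool C to pool D ran from 1.11 at Htr1a and Htr6 to 1.95 at Htr7, with a median of 1.3, against a median of 1.18 over all genes marked in both. The middle 90% of all genes ran from 1.01 to 1.92, and Htr7 alone lay beyond it. Pool C also had more peaks, 34193 against 24690 in pool D, and the part of sequencing depth in this was not tested, since the depth of the libraries is unknown from peak lists.

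With peaks joined, most of the receptors' domains in the replicated list were broad for the strength of their peaks. The −log10 q of the strongest promoter peak, a measure of how firmly the authors' caller separated the peak from the control, was below the median of all marked genes at each of the 8 receptors in all 3 lists. In the replicated list it ran from 21.2 at Htr2c through 32.7 at Htr7, 43.0 at Htr2a and 59.0 at Htr1b. Above these came 89.3 at Htr6, 94.5 at Htr4, 100 at Htr1a and 102 at Htr5a, against a median of 129 over all marked genes. In the replicated list all but Htr2c were broader than the median of all marked genes. In pool C and in pool D it was 6 of 8, with Htr6 also below the median in pool C and Htr7 in pool D. A domain both above the median breadth and below the median strength was held in the replicated list by 7 of the 8, and by 19.7% of all marked genes. That count depends on the peak threshold and on the joining of peaks. With peaks of −log10 q of at least 5, Htr7 at 1570 bp lay below that setting's median of 2223 bp. Without joining, Htr4 at 1387 bp and Htr7 at 1048 bp lay below the median of 2082 bp over all marked genes. Htr6, at 2243 bp, lay just above the median of 2234 bp in the replicated list. Among the 7182 genes below the median strength, 39.5% were above the median breadth.

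**Figure D3:**
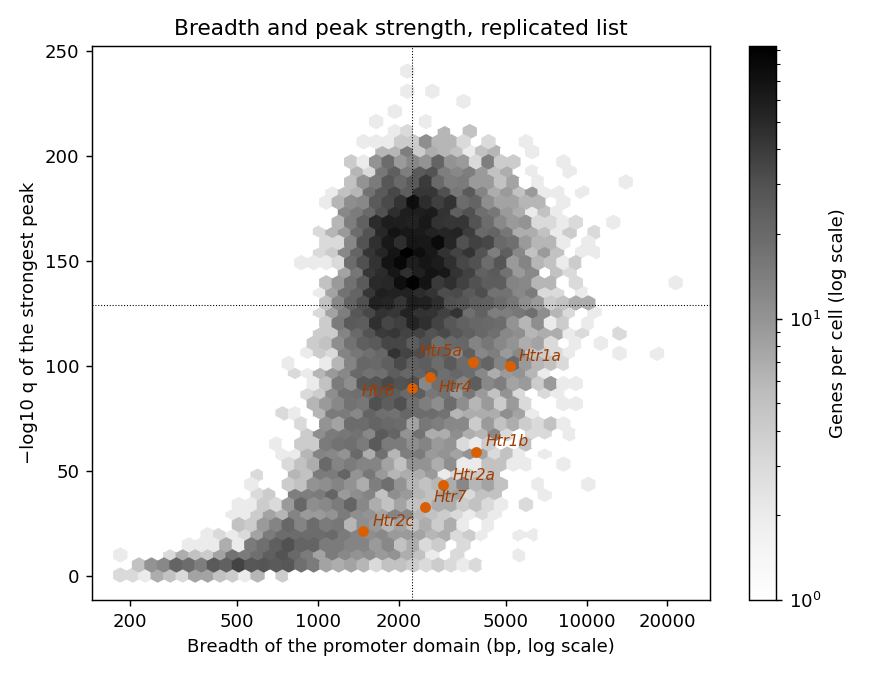
Breadth of the promoter domain in bp (log axis) against −log10 q of its strongest peak in the replicated list, for all marked protein-coding genes (grey cells, shaded by number of genes on a log scale) and the 8 marked serotonin receptors (orange points), with dotted lines at the medians. All 8 receptors lie below the median strength of 129, and 7 lie to the right of the median breadth of 2234 bp, Htr6 by 9 bp.

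The signal value that the authors gave each peak, used here for rank within a list, placed the receptors near the middle. The strongest peak of each marked receptor ranked between the 41.0th and the 72.7th percentile of all peaks in the replicated list, with a median of 59.3. In pool C the range was 52.3 to 81.0 and in pool D it was 38.2 to 72.0. These ranks are among all peaks, promoter or not. Among the strongest peaks of marked genes alone, the −log10 q of the receptors lay between the 7.99th percentile at Htr2c and the 33.2nd at Htr5a.

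At all 8 marked receptors less than 50% of the domain was upstream of the gene's 5′ end in the replicated list, and the same held for 86.2% of all marked genes. The share upstream had a median of 18.4% in the replicated list, from 5.28% at Htr2c to 25.9% at the highest, against a median of 27.8% over all marked genes and a middle range of 14.0% to 40.4%. Domains of several joined peaks were found at Htr4, Htr5a and Htr7 in the replicated list, 3 of 8 receptors, against 18.7% of all marked genes. A gap in a peak list is a stretch that did not pass the caller's threshold and need not be free of the mark.

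The receptors ranged from CpG-poor to CpG-dense promoters. Within 500 bp of the 5′ end, Htr7 held 111 CpGs and Htr6 held 85. Htr4 held 46, Htr2c 41, Htr1b 40 and Htr5a 37, and the lowest counts of the marked receptors were 25 at Htr1a and 24 at Htr2a. Unmarked Htr3a held 12. The median over all marked genes was 60, against 9 over unmarked genes, so 6 of the 8 marked receptors lay below the marked median.

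The broad domains were not at the receptors richest in CpG. Genes within 5 CpGs of Htr1a had a median breadth of 1671.5 bp where marked, against the 5185 bp of Htr1a. The corresponding medians were 1766 bp for Htr1b, 1730.5 bp for Htr5a, 1746 bp for Htr2a and 1841.5 bp for Htr4, each below the receptor's own value. The value of Htr4 is that of joined peaks and was 1387 bp without joining. For Htr2c, Htr6 and Htr7 the like genes had medians of 1766 bp, 2584.5 bp and 3065 bp, each above the receptor's own value. Counted over the domain itself, CpG density was 23.5 per kb at Htr1a, 20.6 at Htr5a, 21.5 at Htr2a and 25.7 at Htr4. It was 70.0 per kb at Htr6, 62.4 at Htr7, 50.1 at Htr2c and 41.2 at Htr1b, against a median of 42.5 over all marked genes. Of the 4001 genes with CpG counts like that of Htr3a, 25.8% were marked.

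**Figure D4:**
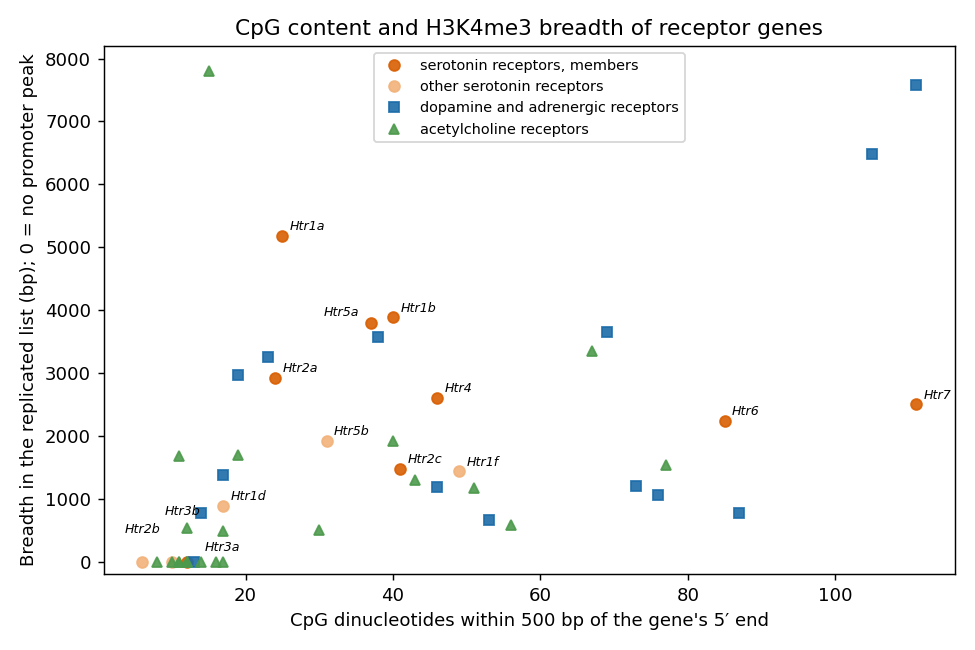
CpG dinucleotides within 500 bp of the gene's 5′ end against domain breadth in bp in the replicated list, for serotonin receptors (circles, with the 5 further serotonin receptor genes in pale orange) and for dopamine and adrenergic (squares) and acetylcholine receptors (triangles), with unmarked genes at 0. Htr1a has 25 CpGs and 5185 bp while Htr7 has 111 and 2499 bp, and the genes without a peak have low CpG counts.

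The RefSeq promoters of the receptors, printed here or not, were also searched on both strands for short motifs of core promoters. RefSeq promoters were on hand for 7 of the 9 genes, in 8 windows since Htr6 has 2, and Htr3a and Htr4 were not matched. TATAAA, the TATA box, was in none of them and in 13.6% of all 32851 promoters of the same length. CCAAT was in those of Htr1b and Htr2c and in 37.4% of all promoters. GGGCGG, the GC box, was in those of Htr1a, Htr2a and Htr6 and in 35.7% of all promoters.

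Of the 5 further serotonin receptor genes, 3 were marked in each list, and no test was made between them and the 9. Over all protein-coding genes, 65.5% were marked in the replicated list, 66.9% in pool C and 64.2% in pool D. Htr5b had 1926 bp in the replicated list, 1419 bp in pool C and 1402 bp in pool D, and it encodes a receptor of rodents whose human counterpart is a pseudogene. Htr1f had 1437 bp in the replicated list, 1938 bp in pool C and 863 bp in pool D. Htr1d, named after its values were seen, had 891 bp in the replicated list, 1076 bp in pool C and 781 bp in pool D. Htr2b, best known from heart valves and gut, and Htr3b, which joins Htr3a in the channel, were unmarked in all 3 lists, so both genes of the channel lacked a promoter peak.

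The promoters of Htr1d and Htr3b show the contrast between a marked and an unmarked start site. At Htr1d the peak lay over the second start site, which is that of a processed transcript, and left the first bare. The annotated protein-coding transcripts of Htr1d begin at the first, up to 688 bp from the peak in the replicated list. The first window, chr4:136423274-136423573, plus strand, held 7 CpGs, and the second, chr4:136424362-136424661, plus strand, held 28. The window of Htr3b, chr9:48964941-48965240, minus strand, held 2.
Htr1d promoter, first start site: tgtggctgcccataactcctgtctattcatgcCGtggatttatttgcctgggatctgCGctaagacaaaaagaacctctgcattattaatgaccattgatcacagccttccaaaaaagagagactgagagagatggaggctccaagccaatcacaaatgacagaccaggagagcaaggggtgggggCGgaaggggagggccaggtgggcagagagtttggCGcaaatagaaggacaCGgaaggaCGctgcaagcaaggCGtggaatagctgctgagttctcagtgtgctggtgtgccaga
Htr1d promoter, second start site: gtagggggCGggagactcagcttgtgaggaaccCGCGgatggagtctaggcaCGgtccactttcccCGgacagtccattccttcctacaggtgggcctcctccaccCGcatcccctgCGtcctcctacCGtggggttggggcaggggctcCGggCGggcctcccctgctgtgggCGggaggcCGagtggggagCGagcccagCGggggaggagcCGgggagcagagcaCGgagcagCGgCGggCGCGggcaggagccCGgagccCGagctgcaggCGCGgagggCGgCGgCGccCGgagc
Htr3b promoter: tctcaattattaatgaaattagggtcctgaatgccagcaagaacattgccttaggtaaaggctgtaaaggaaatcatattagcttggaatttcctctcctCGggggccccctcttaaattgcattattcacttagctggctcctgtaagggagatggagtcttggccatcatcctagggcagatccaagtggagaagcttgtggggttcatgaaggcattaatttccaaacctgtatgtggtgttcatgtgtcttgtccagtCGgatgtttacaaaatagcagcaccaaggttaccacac

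The signalling proteins downstream of the receptors were marked throughout. All 11 listed genes of Gi/o signalling, all 11 of Gq signalling and all 17 of Gs and cyclic AMP signalling carried a promoter peak in all 3 lists. So did all 13 for proteins that bind serotonin receptors. Over all protein-coding genes the share was 65.5% in the replicated list, 66.9% in pool C and 64.2% in pool D. Median breadths of these gene groups in the replicated list were 3630 bp, 2989 bp, 3702 bp and 2747 bp in that order. The marked receptors had 2766.5 bp and all marked genes 2234 bp. The narrowest of each group in the replicated list were Kcnj5 at 315 bp, Plcb2 at 571 bp, Adcy7 at 709 bp and S100a10 at 1275 bp. The broadest of the Gi/o list were Kcnj6 and Kcnj3, the potassium channel subunits opened by Gi/o-coupled receptors, with 6669 bp and 5895 bp in the replicated list. In the Gq list Gnaq, which encodes the G protein itself, had 4157 bp. Among the adenylyl cyclases Adcy9 had 9884 bp and Adcy5 had 6795 bp. Dlg4, the postsynaptic scaffold to which Htr2a and Htr2c bind, had 12349 bp and the receptor kinase gene Grk2 had 5337 bp in the replicated list, 5644 bp in pool C and 3222 bp in pool D.

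**Figure D5:**
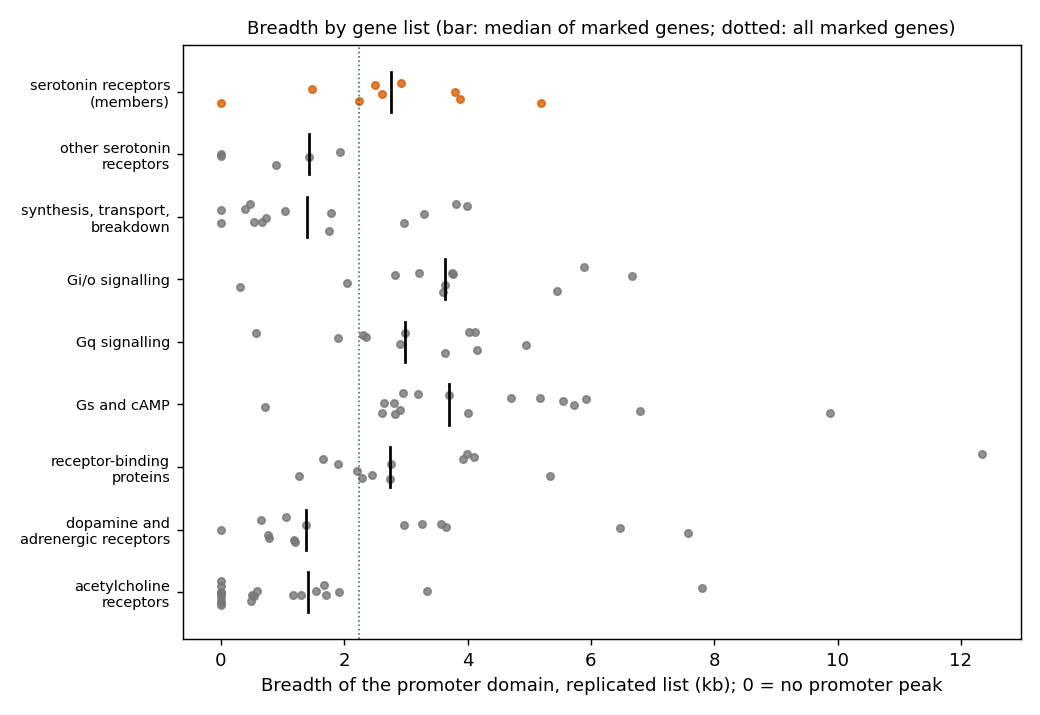
Breadth of the promoter domain in kb in the replicated list for each gene (points; unmarked genes at 0) of the serotonin receptors and 8 further gene lists, with bars at the median of the marked genes of each list and a dotted line at the median of all marked genes. The signalling lists have no gene at 0, while the receptor lists spread from 0 to beyond 5 kb in the serotonin, dopamine and adrenergic, and acetylcholine families.

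Other transmitter receptors were marked to different degrees. Over all protein-coding genes the share marked was 65.5% in the replicated list, 66.9% in pool C and 64.2% in pool D. Of 14 dopamine and adrenergic receptor genes, 13 were marked in each of the 3 lists, with a median breadth of 1385 bp in the replicated list. Adrb1 and Adra1d were the broadest, at 7572 bp and 6477 bp, and Drd3 had no peak. The median for the 8 marked of the 9 named serotonin receptors was 2766.5 bp. That value leaves out the 5 further serotonin receptor genes, whose 3 marked ones had a median of 1437 bp. Of 21 acetylcholine receptor genes, 12 were marked in the replicated list, 12 in pool C and 10 in pool D, or 57.1%, 57.1% and 47.6%. Their median breadth was 1415.5 bp in the replicated list. Chrm1, the main muscarinic receptor of hippocampal pyramidal cells, had 7802 bp in the replicated list, 13819 bp in pool C and 6952 bp in pool D. Chrm3 had 3345 bp in the replicated list, while Chrm5 and the muscle subunit gene Chrna1 had no peak. No test was made between the families.

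Genes that make, carry or break down serotonin were a mixed group. In the replicated list 12 of 14 were marked, against 65.5% of all protein-coding genes. In pool C it was all 14 against 66.9%, and in pool D 10 against 64.2%. The broadest were Slc29a4, a low-affinity monoamine transporter, with 3994 bp in the replicated list, 4052 bp in pool C and 3274 bp in pool D, and Slc18a1 with 3813 bp, 4354 bp and 3624 bp in the same lists. The domain at Slc18a1 also held the start of its neighbour Atp6v1b2. Tph1 and Ddc, which encode a tryptophan hydroxylase and the decarboxylase of the same route, lacked a replicated promoter peak and had short ones of 405 bp and 564 bp in pool C and of 380 bp and 552 bp in the list called on both pools together, and none in pool D.

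Markers of serotonergic neurons, whose cell bodies are not in the hippocampus, were marked in 6 of 8 cases in each list. Among all protein-coding genes the share marked was 65.5% in the replicated list, 66.9% in pool C and 64.2% in pool D. Fev and Lmx1b, transcription factors that specify these neurons, had no peak in any list. Slc6a4, the serotonin transporter gene, had 1761 bp in the replicated list, 1842 bp in pool C and 1587 bp in pool D, with a −log10 q of 31.6 in the replicated list. Tph2, the neuronal tryptophan hydroxylase gene, had 478 bp, 413 bp and 350 bp in the same lists, with a −log10 q of 10.6 in the replicated list. Gata2 had 5687 bp in the replicated list, 8078 bp in pool C and 4302 bp in pool D, with a −log10 q of 9.57 in the replicated list. H3K4me3 also lies on poised promoters, and RNA was not measured here, so a peak at these genes does not show transcription.

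Markers of the cell types the sample could hold were set beside the tissue label. Counts of marked genes cannot check that label, because most genes are marked. The share over all protein-coding genes was 65.5% in the replicated list, 66.9% in pool C and 64.2% in pool D. All 10 markers of hippocampal excitatory neurons were marked in all 3 lists, with Prox1 of the dentate gyrus at 15493 bp and Zbtb20 at 14824 bp in the replicated list. Astrocytes had 5 of 5 markers in all 3 lists, endothelium 4 of 4, and oligodendrocytes 5 of 5 in the replicated list and in pool C and 4 of 5 in pool D. Microglia had 3 of 5 in the replicated list, 5 of 5 in pool C and 0 of 5 in pool D. The part of these cell types in the mark at the receptor genes was not tested.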

How the data were processed

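The authors deposited 4 lists of H3K4me3 peaks on build mm10, per the labels: 1 of pool C, 1 of pool D, 1 of both pools together and 1 of replicated peaks. For each peak the authors gave a display score, a signal value for enrichment over a control on their caller's scale, −log10 of q, and a summit, per the file columns. No source used here gives the caller, its settings or the depth. Peaks were placed on the start sites of GENCODE M21 (assembly GRCm38.p6) with Python 3.11.15 and pandas 2.3.3, and an overlap of at least 1 bp with the 1 kb window counted. A gene's broadest domain was used. For the serotonin receptors, −log10 q and signal are those of the strongest promoter peak. For all other genes and for the medians over all marked genes, −log10 q is that of the strongest peak in the broadest domain. Promoters are from RefSeq. The placing of peaks and joining of domains were tested on simulated data. The replicated list gave the main values, and it is not independent of the pool lists. Of its peaks, 357 had q above 0.05.

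The receptors and gene lists were chosen with earlier results of these data known. From each list the text names the 2 broadest by the replicated list and, in alphabetical order, up to 2 unmarked ones. Htr1d, Slc6a4, Tph2, Maoa, Kcnj5, Plcb2, Adcy7, S100a10 and the cell type markers named were chosen after their values were seen. Alternatives changed the peak threshold, the list, the window, the start sites and the joining distance. Some results that these rules select are not reported here. No column of per-sample values was used.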

Additional observations from a re-analysis of the deposited data

How the results depend on the processing

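Htr3a lacked a promoter peak and the other 8 receptors were marked under each of these alternatives: peaks with −log10 q of at least 5, either pool alone, both pools together, windows of 500 bp and 2.5 kb, the 5′ end alone, start sites of coding transcripts and the summit within the window. Joining no gaps or gaps of 3 kb was run for breadth only. Leaving out either pool gave medians of 2668.0 bp (pool D alone) to 3261.5 bp (pool C alone). The share of all genes marked was 61.9% with the 5′ end alone. Without joining, Htr7 fell to 1048 bp and Htr4 to 1387 bp, both below the 2082 bp median of all marked genes under that setting. With the stricter threshold Htr7 was 1570 bp, below the 2223 bp median of all marked genes under that setting. In pool D alone Htr2c was 847 bp and Htr7 was 1457 bp. The depth of the libraries is unknown, and its part in breadth was not tested. No paired analysis was possible because the technical replicates of a pool share 1 alignment and no test was made.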

Other observations

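For 6 of the marked serotonin receptors, the dopamine, adrenergic or acetylcholine receptor closest in breadth was found by the distance of log2 breadth over the replicated list, pool C and pool D, among 23 genes marked in all 3. The likeness is a description over 3 lists that share reads. Among these 6 the closest pair was Htr2a with Adra2c, an adrenergic receptor of presynaptic terminals, at a distance of 0.101. Adra2c had 2966 bp in the replicated list, 3217 bp in pool C and 2942 bp in pool D. Adra2c was also nearest to Htr4, at 0.254. Adra1a was nearest to Htr5a at 0.297. Htr7 and Htr6 were nearest to the muscarinic receptor gene Chrm2, at 0.464 and 0.640, and Htr2c was nearest to Adra2b at 0.455.

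At Htr5b the replicated domain of 1926 bp was broader than that of pool C, 1419 bp, and that of pool D, 1402 bp, since a second peak was joined in the replicated list across a gap of 334 bp. Htr7 had a further peak of 482 bp far inside the gene in pool C alone, with a −log10 q of 3.12. Maoa, which encodes the enzyme that oxidises serotonin, had a domain of 3300 bp in the replicated list, 4879 bp in pool C and 3262 bp in pool D.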
